A study of Homo sapiens with 4 samples.

Results

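Among LNCaP prostate cancer cells that had not yet become resistant to enzalutamide, the cells with the highest summed level of SYT4, S100P, MT1G, GSTA1, FXYD3 and PKIB were described. Each cell was scored as 10000 times its UMIs (unique molecular identifiers, counted RNA molecules) of these 6 genes over its total UMIs, and the members were the top 10% of the score in each of 2 libraries. This gave 202 members of 2019 cells in LNCaP and 456 of 4565 in LNCaP-ENZ48, 658 of 6584 cells in all, of 15452 in the series. The members were thus selected on their measured levels of the 6 genes, so those levels are a description. The gene list the study drew from its own cluster of such cells, made on these samples, holds all 6.

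LNCaP is a line from a lymph node metastasis of prostate adenocarcinoma that depends on androgen signalling, which enzalutamide blocks. LNCaP cells received 0.1% DMSO for 48 h, and LNCaP-ENZ48 cells 10 µM enzalutamide for 48 h. RES-A and RES-B are resistant sublines of LNCaP, made by increasing enzalutamide and by continuous RD-162, a related antiandrogen, and both were kept in 10 µM enzalutamide. Living cells were sorted and 1 droplet 3′ RNA library was made per group. With 1 library per group no test between groups was possible, and each 95% interval below is an exact binomial one that covers counting error only. Cells had at least 1500 genes, at least 5000 UMIs and under 20% mitochondrial UMIs, and their median depth was 26502 UMIs in LNCaP and 13968 in LNCaP-ENZ48, with 12164 and 12480 in the resistant lines. LNCaP and LNCaP-ENZ48 shared 4 cell barcodes. The members were somewhat deeper than the other cells, with medians of 29516 against 26088 UMIs in LNCaP and 15520 against 13777 in LNCaP-ENZ48. At 5000 UMIs per cell they held as many genes as the others, 1745 against 1745 and 1692 against 1696.

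Luminal cells of the prostate secrete kallikreins such as KLK3 (prostate-specific antigen) under androgens, accumulate zinc and carry the keratins KRT8 and KRT18. The 6 score genes belong to different systems. SYT4 encodes a synaptotagmin of secretory vesicles, S100P a calcium-binding S100 protein, MT1G a metallothionein that binds zinc and copper, GSTA1 an alpha-class glutathione S-transferase, FXYD3 a regulator of the sodium pump, and PKIB an inhibitor of protein kinase A. Copies of MT1G and GSTA1 that are nearly identical in sequence exist, so the division of UMIs within their families is uncertain.

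In GRCh38 the 6 genes lie on 5 chromosomes: SYT4 (ENSG00000132872) on chromosome 18 (43267892 to 43277535), S100P (ENSG00000163993) on 4 (6693878 to 6697170), MT1G (ENSG00000125144) on 16 (56666730 to 56668065), FXYD3 (ENSG00000089356) on 19 (35115823 to 35124324), and both GSTA1 (ENSG00000243955, 52791371 to 52803860) and PKIB (ENSG00000135549, 122471917 to 122726373) on 6. The 250 bases before the RefSeq transcription start are shown for SYT4, S100P and GSTA1, which name the cells, and for KLK3, the androgen-driven gene that accompanied them. Capitals mark matches, on either strand, to the TATA box TATAAA, the hypoxia response core ACGTG, the antioxidant response core TGACNNNGC or the androgen response half-site AGAACA.
SYT4 (GRCh38.p14, chr18:43277491-43277740, minus strand): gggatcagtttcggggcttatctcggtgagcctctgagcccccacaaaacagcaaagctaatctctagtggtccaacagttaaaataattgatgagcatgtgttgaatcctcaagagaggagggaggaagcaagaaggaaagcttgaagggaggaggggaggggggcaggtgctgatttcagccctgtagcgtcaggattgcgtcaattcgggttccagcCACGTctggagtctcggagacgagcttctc
S100P (GRCh38.p14, chr4:6693628-6693877, plus strand): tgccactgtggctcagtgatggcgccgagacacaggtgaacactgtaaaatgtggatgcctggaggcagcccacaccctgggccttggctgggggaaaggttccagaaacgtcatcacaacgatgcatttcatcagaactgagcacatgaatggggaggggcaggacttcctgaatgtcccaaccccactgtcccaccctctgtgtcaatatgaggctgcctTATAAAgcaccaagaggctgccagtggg
GSTA1 (GRCh38.p14, chr6:52803817-52804066, minus strand): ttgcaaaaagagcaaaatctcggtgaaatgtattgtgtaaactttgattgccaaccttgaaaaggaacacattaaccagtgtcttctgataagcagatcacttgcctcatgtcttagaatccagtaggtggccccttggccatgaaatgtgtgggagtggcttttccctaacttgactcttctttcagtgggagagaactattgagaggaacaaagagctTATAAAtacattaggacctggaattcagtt
KLK3 (GRCh38.p14, chr19:50854665-50854914, plus strand): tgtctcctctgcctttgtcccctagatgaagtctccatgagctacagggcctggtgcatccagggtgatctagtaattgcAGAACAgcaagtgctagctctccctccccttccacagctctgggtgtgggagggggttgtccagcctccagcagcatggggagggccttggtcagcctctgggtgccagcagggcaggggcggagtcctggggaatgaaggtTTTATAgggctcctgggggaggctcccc
S100P and GSTA1 had a TATA box beginning 28 and 30 bases before the start, and KLK3 had the letters TTTATA, its reverse complement, at 28. SYT4 had the hypoxia core at 30 on the other strand and no TATA box, and KLK3 had a half-site at 170. Over 27305 promoters of the same length, 11.1% held TATAAA, 18.7% ACGTG, 11.03% TGACNNNGC and 12.4% AGAACA. The windows of FXYD3 and PKIB held none of the 4 motifs.

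The score was low in most cells and had a long upper tail. In LNCaP the lowest, median and highest score of members was 10.5, 16.3 and 55.2, against 0, 1.22 and 10.5 in the other cells. In LNCaP-ENZ48 the values were 11.5, 18.6 and 68.0 against 0, 1.00 and 11.5. The scores nearest the limit were 10.54 inside and 10.51 outside in LNCaP, and 11.51 and 11.50 in LNCaP-ENZ48, so the limit fell within a continuous range. By contrast, the same top 10% began at 5.79 in RES-A and 5.33 in RES-B.

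**Figure D1:**
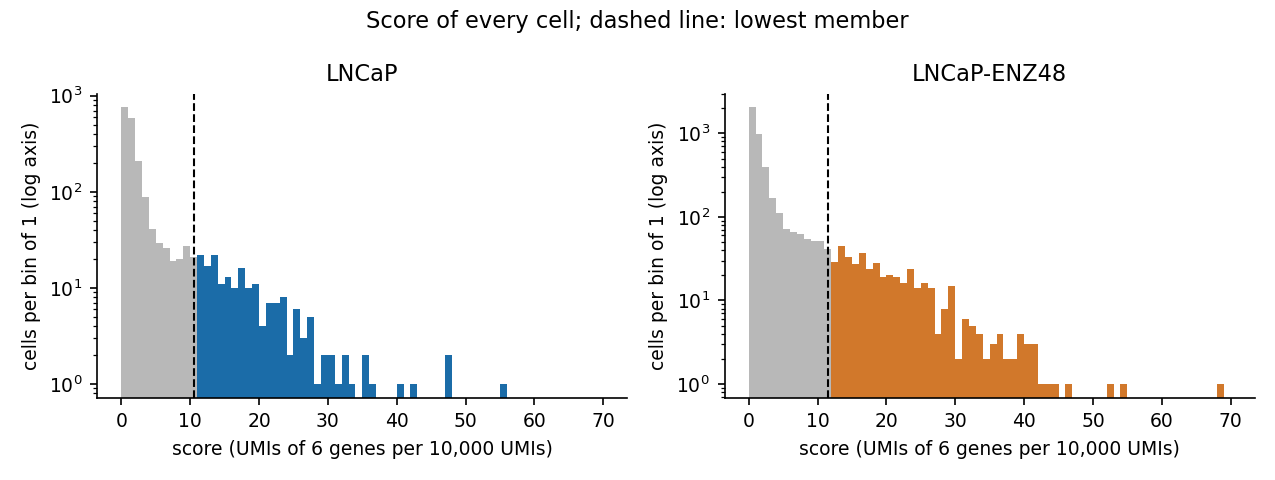
Number of cells (log axis) per bin of 1 score unit in LNCaP and LNCaP-ENZ48, where the score is UMIs of the 6 genes per 10,000 UMIs and coloured bars lie wholly above the lowest member, marked by the dashed line. The tail of members runs to 55.2 and 68.0 and joins the other cells without a gap.

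Most members held several of the 6 genes rather than a single one. At least 4 genes were detected in 181 of 202 members in LNCaP and 381 of 456 in LNCaP-ENZ48, against 8.48% and 6.86% of the other cells, and all 6 in 43 and 87 members. SYT4 gave the most UMIs in 93 members of LNCaP and 241 of LNCaP-ENZ48, S100P in 73 and 109, MT1G in 19 and 82, FXYD3 in 14 and 4, GSTA1 in 3 and 14, and PKIB in 0 and 6. The name therefore rests mainly on SYT4 and S100P, which made up 31.6% and 28.4% of the members' score UMIs in LNCaP and 39.4% and 16.9% in LNCaP-ENZ48, while GSTA1 made up 4.90% and 7.29%. The 10% of cells that were members held 76.3% and 78.0% of all SYT4 UMIs of the 2 libraries, 69.2% and 66.7% of S100P, 61.9% and 57.6% of MT1G and 59.7% and 59.3% of GSTA1. FXYD3 and PKIB were more widespread, with 31.1% and 27.4% of FXYD3 UMIs and 22.2% and 33.7% of PKIB UMIs in members.

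To read each gene in cells drawn without it, the top 10% was drawn anew on 5 genes and the remaining gene was read. All of these genes are on the list of the study's own cluster, which was made on these samples. Higher held-out values in LNCaP and LNCaP-ENZ48 are therefore a description, and not independent evidence that the genes belong together. Each held-out gene was higher in the cells drawn on the others in both libraries. SYT4 was at 370 CPM (UMIs of the gene per 1000000 UMIs) against 48.9 CPM in LNCaP (log2 ratio 2.92, 95% interval 2.83 to 3.002) and 478 against 64.7 CPM in LNCaP-ENZ48 (2.88, 2.82 to 2.95). S100P was at 351 against 49.3 CPM (2.83, 2.75 to 2.92) and 199 against 36.7 CPM (2.44, 2.34 to 2.53). The ratios of MT1G were 3.28 and 2.82, those of GSTA1 3.16 and 3.17, those of FXYD3 1.77 and 1.51, and those of PKIB 1.11 and 1.81, with all 12 intervals above 0.

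The same exercise in the resistant lines gave a different picture. The same limit holds here, since the paper describes that cluster as most prevalent in LNCaP and LNCaP-ENZ48. In RES-A the held-out ratios of GSTA1 (0.41, 0.32 to 0.50) and FXYD3 (0.30, 0.17 to 0.42) were small, and the intervals of S100P and PKIB included 0. SYT4 and MT1G had ratios of 2.06 and 1.44 there on 20 and 57 UMIs. In RES-B, SYT4 (0.54), GSTA1 (0.60) and FXYD3 (0.36) were slightly higher, PKIB was at 0.05 with an interval that included 0, S100P was lower (-1.74, on 4 UMIs) and MT1G had 0 UMIs in the drawn cells. The score of the resistant lines was carried by single genes, with 74.0% of its UMIs in the top 10% from GSTA1 in RES-A and 60.7% from SYT4 in RES-B. A threshold common to all libraries was set at 5000 UMIs per cell, at which 5 UMIs of the 6 genes marked the upper tail of LNCaP. Before resistance it was passed by 11.1% of LNCaP and 12.6% of LNCaP-ENZ48 cells (11.6% to 13.6%). The resistant lines had 4.54% (RES-A, 3.96% to 5.18%) and 3.49% (RES-B, 2.96% to 4.09%) past it. These 2 shares depended on the setting, with 1.73% and 1.53% without thinning, 8.23% and 6.53% when MT1G was left out of the score, and 0.583% and 0.731% at a threshold set at the top 5% of LNCaP, where LNCaP-ENZ48 had 11.1%, 12.1% and 7.47%. Of those cells, 73.2% and 78.6% held at least 3 of the 6 genes before resistance, against 21.9% in RES-A and 27.0% in RES-B.

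**Figure D2:**
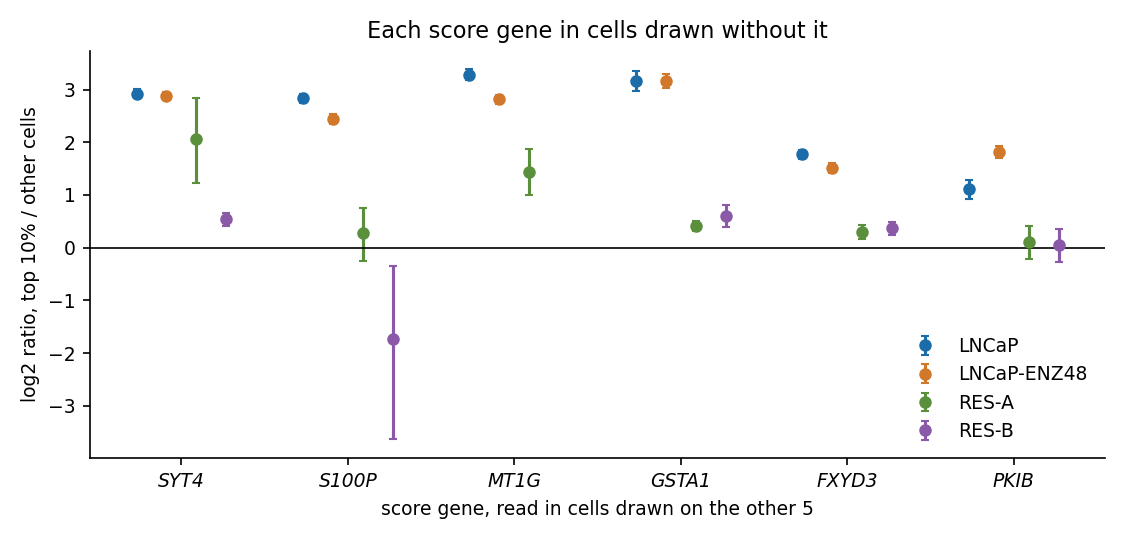
Log2 ratio of each score gene between the top 10% of cells drawn on the other 5 genes and the remaining cells, with 95% counting intervals, in 4 libraries. All 12 points of LNCaP and LNCaP-ENZ48 lie above 1, while the points of RES-A and RES-B lie mostly near 0. MT1G in RES-B had 0 UMIs and is not drawn. The genes are all on the list of the study's own cluster from these samples, so the ratios are a description.

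Beyond the 6 genes, many genes differed between members and the other cells of their library. In LNCaP, 286 of 7421 genes with at least 10 CPM were at least 1.5-fold higher in members (3.85%) and 574 were lower (7.73%). In LNCaP-ENZ48 the counts were 248 (3.48%) and 427 (5.99%) of 7126 genes. The top 10% drawn by the same rule differed far less in the resistant lines, by 26 (0.354%) and 54 genes (0.735%) in RES-A and 54 (0.71%) and 212 (2.79%) in RES-B. These shares are descriptions of pooled UMIs and carry no test. Of the LNCaP genes past the limit, 273 higher and 469 lower ones also reached 10 CPM in LNCaP-ENZ48, where all 273 and 460 of 469 had the same sign in its members and 175 and 281 were past 1.5-fold. In RES-A, 5 of 247 higher and 30 of 473 lower genes were past 1.5-fold the same way, and in RES-B 7 of 259 and 139 of 473.

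NDUFA4L2, a mitochondrial protein induced in low oxygen, differed most among well-expressed genes, at 77.5 CPM in members against 6.24 CPM in other cells of LNCaP (log2 ratio 3.63, 3.42 to 3.84) and 89.3 against 7.07 CPM in LNCaP-ENZ48 (3.66, 3.48 to 3.84). In RES-A and RES-B it was at most 2.17 CPM in either set of cells. The transcript AC069228.1 followed at 87.0 against 13.4 CPM (2.70) and 130 against 32.9 CPM (1.99). CAMK2N1, an inhibitor of the kinase CaMKII, was at 193 against 49.8 CPM (1.95) and 504 against 187 CPM (1.43), and reached 1330 against 624 CPM in RES-B. BCHE, which encodes butyrylcholinesterase, was at 41.3 against 11.3 CPM (1.87) and 67.6 against 14.6 CPM (2.21).

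The 15 genes with the highest ratios in LNCaP were all higher in members of LNCaP-ENZ48 too, with a median log2 ratio there of 1.23 (0.81 to 3.66), against 0.15 in RES-A and -0.01 in RES-B. They included GULP1, an adaptor for the uptake of dying cells, at 312 against 123 CPM (1.35) and 383 against 155 CPM (1.31). The antioxidant enzyme NQO1 was at 590 against 246 CPM (1.26) and 611 against 246 CPM (1.31), but at -0.27 and -0.45 in RES-A and RES-B. VEGFA, the vascular growth factor, had ratios of 1.62 and 1.85, the fatty acid elongase ELOVL5 1.26 and 0.88, and the glutathione S-transferase GSTA4 1.23 and 1.20. PGM3 and GFPT1, both of the pathway that makes UDP-GlcNAc for glycosylation, had ratios of 1.25 and 1.14 in LNCaP and 1.08 and 0.87 in LNCaP-ENZ48. In LNCaP-ENZ48 the leading genes also included ADAMTS1, a secreted protease (1.47), ZYX, a focal adhesion protein (1.43), ME1, the malic enzyme (1.24), and SQSTM1, the autophagy receptor p62 (1.15).

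On the lower side, PEG3, a paternally expressed zinc finger gene, was at 54.8 CPM in members against 345 CPM in other cells of LNCaP (-2.65, -2.82 to -2.50) and 21.7 against 120 CPM in LNCaP-ENZ48 (-2.47, -2.71 to -2.24). At 5000 UMIs per cell a PEG3 UMI was found in 10.4% of members and 53.3% of other cells of LNCaP, in 5.70% and 31.3% of LNCaP-ENZ48, and in 0 of 4629 RES-A cells, which allows up to 0.0648% (3 of the cells counted), and 2.48% of RES-B cells. DSEL, an epimerase of dermatan sulfate, was at 27.7 against 148 CPM (-2.42) and 8.10 against 36.7 CPM (-2.18). HMOX1, the heme oxygenase, was at 26.8 against 109 CPM (-2.03) in LNCaP and 36.3 against 48.6 CPM (-0.42) in LNCaP-ENZ48. The 5 other lowest genes in LNCaP were the mitotic genes CDK1, PBK and CENPU, the histone gene H2AFX and the chromatin gene ATAD2. Their ratios were -2.21 to -1.66 in LNCaP and -2.66 to -1.53 in LNCaP-ENZ48. All 8 lowest genes of LNCaP were lower in members of LNCaP-ENZ48, and the 7 genes lowest there beside PEG3 were all cell cycle genes, led by UBE2C (-2.91) and TOP2A (-2.90).

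**Figure D3:**
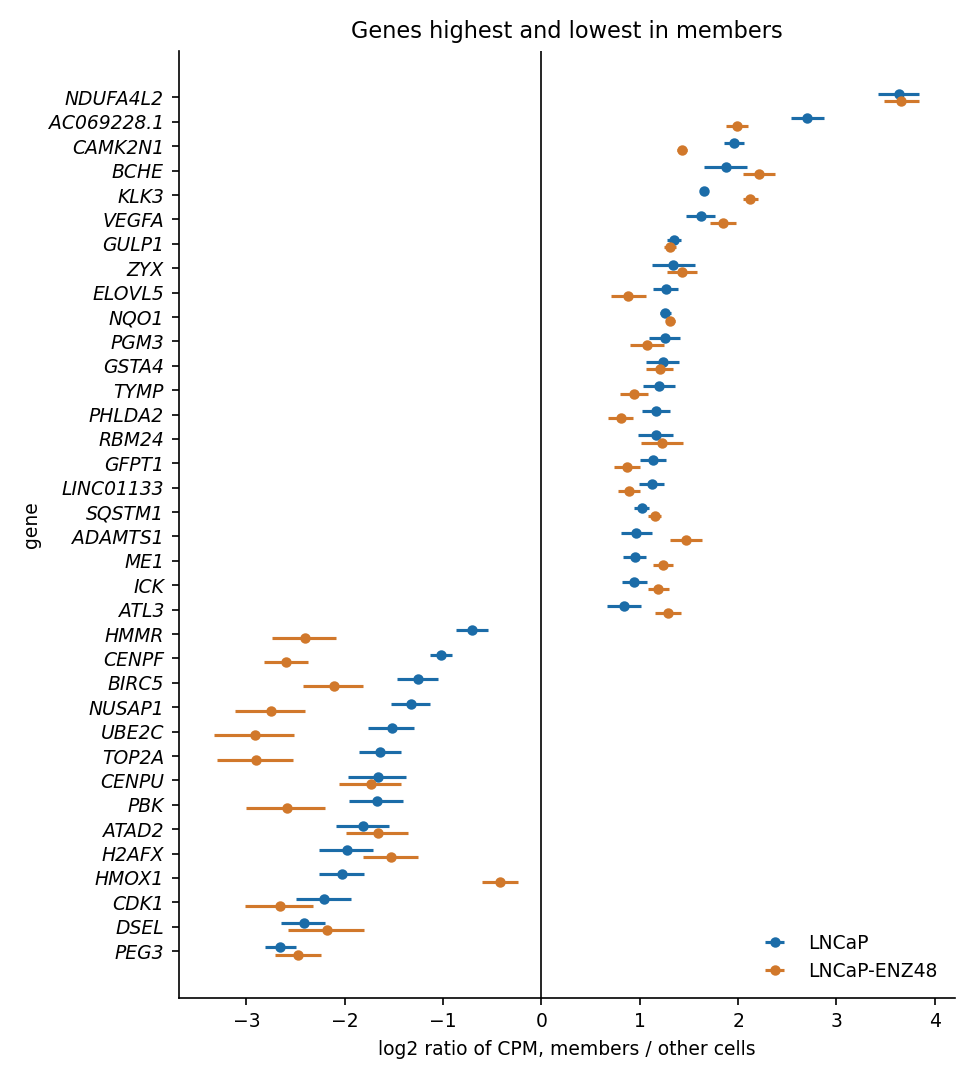
Log2 ratio of CPM, members over other cells, with 95% counting intervals, for the genes highest or lowest in LNCaP or in LNCaP-ENZ48. All 22 higher genes are on the same side of 0 in both libraries, NDUFA4L2 lies at 3.63 and 3.66, and HMOX1 is at -2.03 in LNCaP and -0.42 in LNCaP-ENZ48.

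Cell cycle transcripts were lower in members. Phases called from S and G2/M genes at 5000 UMIs per cell put 87.1% of LNCaP members (81.7% to 91.4%) and 72.8% of the other cells (70.7% to 74.8%) in G1. In LNCaP-ENZ48 the shares were 95.4% (93.05% to 97.1%) and 82.1% (80.9% to 83.2%). S phase held 2 of 202 and 6 of 456 members. Of 50 G2/M genes measured in LNCaP, 43 were at least 1.5-fold lower and 0 higher in members (median log2 ratio -1.26), and of 26 S phase genes 18 were lower (-1.04), beside a median of -0.06 over all genes. In LNCaP-ENZ48, 38 of 43 G2/M genes (-2.27) and 11 of 18 S phase genes (-0.69) were lower. Over all genes, 7.73% were lower in LNCaP and 5.99% in LNCaP-ENZ48. MKI67, the proliferation antigen, was at 19.8 against 62.7 CPM and 5.31 against 34.2 CPM. When only cells called G1 were used, 362 rather than 574 genes were lower in LNCaP and 283 rather than 427 in LNCaP-ENZ48.

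Of the androgen-induced genes, KLK3 was higher in members and most others were not. KLK3 was at 1872 against 594 CPM in LNCaP (1.66, 1.63 to 1.69) and 302 against 69.3 CPM in LNCaP-ENZ48 (2.12, 2.05 to 2.20), while its neighbour KLK2 was lower, at 241 against 331 CPM (-0.46) and 16.5 against 27.3 CPM (-0.73). The protease gene TMPRSS2 was near 0 (0.12 and 0.12). The transporter gene ABCC4 was higher (0.97 and 0.98) and SLC45A3, another androgen target, lower (-0.62 and, on 15 UMIs, -1.86). In all, 3 of 18 androgen-induced genes were at least 1.5-fold higher in LNCaP members and 2 lower (median 0.06), and 3 of 14 and 2 in LNCaP-ENZ48 (-0.01). Of all genes, 3.85% were higher and 7.73% lower in LNCaP, and 3.48% and 5.99% in LNCaP-ENZ48.

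Androgen-repressed genes were split. CAMK2N1, BCHE, UGT2B15 and UGT2B17 were past 1.5-fold higher in LNCaP members, and PEG3, DDC (aromatic amino acid decarboxylase, 9.41 against 25.9 CPM) and TP53INP1 lower, of 8 measured. In LNCaP-ENZ48, 2 were higher and 3 lower. The shares over all genes were 3.85% higher and 7.73% lower in LNCaP, and 3.48% and 5.99% in LNCaP-ENZ48. PEG3 is on this list but was lower in LNCaP-ENZ48 than in LNCaP, at a log2 ratio of -1.34 in members and -1.52 in other cells. The list medians of that ratio were 0.73 and 0.63.

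Between the 2 libraries, androgen-induced genes were lower after enzalutamide in members as in other cells. KLK3 stood at a log2 ratio of LNCaP-ENZ48 over LNCaP of -2.63 in members and -3.10 in other cells, KLK2 at -3.87 and -3.60, and TMPRSS2 at -2.06 and -2.06. At least 1.5-fold lower were 12 of 14 androgen-induced genes in members, where 4.54% of 6988 genes were, and 11 of 14 in other cells, where 2.88% were. The median over all these genes was -0.07 in both sets of cells. Of the score genes, PKIB was at 56.3 CPM in LNCaP members and 151 CPM in LNCaP-ENZ48 members (1.43), GSTA1 at 90.3 and 148 CPM (0.71), and S100P at 523 and 343 CPM (-0.61), and in other cells the ratios were 0.54, 0.69 and -0.50. Each ratio compares 1 library with 1 library, so treatment and library cannot be told apart.

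Of the hypoxia list, which holds glycolytic enzymes, 9 of 19 measured genes were at least 1.5-fold higher in members of LNCaP and 0 lower (median 0.56), while the other 10 were within the limit. In LNCaP-ENZ48 14 of 20 were higher and 0 lower (0.64). Over all genes, 3.85% were higher in LNCaP and 3.48% in LNCaP-ENZ48, with medians of -0.06 and -0.05. The mitophagy receptor gene BNIP3 was at 676 against 375 CPM and 692 against 391 CPM, lactate dehydrogenase LDHA at 686 against 387 CPM and 751 against 421 CPM, and phosphoglycerate kinase PGK1 at 679 against 397 CPM and 685 against 359 CPM. SLC2A1, the glucose transporter, was at -0.15 and -0.28, with intervals that included 0. The 10% of cells highest in this list held 16.3% of LNCaP members (11.5% to 22.2%) and 23.7% of LNCaP-ENZ48 members (19.9% to 27.9%), so most members were not among them.

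Genes near the score genes in function moved unevenly. Of the metallothioneins, MT1F was higher (40.6 against 9.61 CPM, 2.08, and 39.7 against 14.95 CPM, 1.41), MT1X was at 0.01 in both libraries, MT2A was at 0.02 and 0.42, and MT1E had 0 UMIs in these cells. S100A10 was at 11.4 against 0.987 CPM (3.53) and 9.78 against 1.05 CPM (3.22), on 69 and 70 UMIs in members. Of 14 genes of vesicle release only SYT7 was past 1.5-fold in each library (1.07 and 0.91). Of 17 targets of the oxidative stress factor NRF2, NQO1, ME1, EPHX1 and BLVRB were past 1.5-fold higher in LNCaP and HMOX1 lower, beside 3.85% and 7.73% of all genes. The list had a median of 0.16 in both libraries. The glutathione S-transferases had 2 of 9 genes higher in LNCaP, one being GSTA4, and 1 of 9 in LNCaP-ENZ48, beside 3.85% and 3.48% of all genes. None of 3 genes of the sodium pump family and none of 10 genes of protein kinase A were past 1.5-fold in either library.

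Luminal genes were present in members, at ratios on both sides of 0. KRT18 was at 694 against 413 CPM and 637 against 407 CPM, KRT8 at 236 against 162 CPM and 255 against 178 CPM, and HOXB13 and FOXA1 were within 0.16 of 0 in both libraries. FOLH1, which encodes prostate-specific membrane antigen, was lower, at 301 against 331 CPM (-0.14, -0.21 to -0.07) and 390 against 543 CPM (-0.48, -0.53 to -0.42). Summed over 12 luminal genes the level was 2306 CPM in members and 1947 CPM in others of LNCaP (0.24), and 2124 and 1962 CPM in LNCaP-ENZ48 (0.11). The basal genes KRT5, KRT15 and TP63 had 0 UMIs in members of both libraries, as had the club cell genes SCGB1A1 and SCGB3A1, the hillock genes KRT4 and KRT13, the neuroendocrine genes CHGA, CHGB and INSM1, and the endothelial and leukocyte genes PECAM1 and PTPRC. The summed levels of 13 club and hillock genes (8.75 and 7.54 CPM in members), 14 neuroendocrine genes (14.7 and 21.4 CPM) and 14 stromal, endothelial and immune genes (4.46 and 4.89 CPM) were low. The list of 8 basal genes had a larger ratio than the luminal list, at 48.2 against 24.6 CPM in LNCaP (0.97, 0.78 to 1.16) and 25.7 against 16.8 CPM in LNCaP-ENZ48 (0.61, 0.38 to 0.84). Most of it was the integrin gene ITGA6, which was past 1.5-fold in both libraries, at 44.9 against 21.1 CPM (1.09) and 25.4 against 14.3 CPM (0.83).

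Lists from the study gave differing counts, which stand beside 3.85% of all genes higher and 7.73% lower in LNCaP and 3.48% and 5.99% in LNCaP-ENZ48. Of 94 markers of the study's own cluster, which was chosen on these samples and so is not independent evidence, 41 were past 1.5-fold higher in LNCaP and 45 in LNCaP-ENZ48, and 0 lower. The PROSGenesis list came from castration-resistant luminal cells that regenerate the mouse prostate. It had 5 of 44 genes higher and 1 lower in LNCaP (median 0.22). In LNCaP-ENZ48 it had 2 of 42 and 1 (0.16), counts near the shares of all genes. Of its measured genes, 35 of 44 and 33 of 42 were above 0, beside all-gene medians of -0.06 and -0.05. The 10% of cells highest in this list held 33.7% of LNCaP members (27.2% to 40.6%) and 18.4% of LNCaP-ENZ48 members (14.97% to 22.3%). Most members were thus not among them. The paper reports a high score for this list in its own cluster in LNCaP before enzalutamide. The list of genes raised in neuroendocrine prostate cancer had 6 of 10 lower (-0.62) and 5 of 9 lower (-0.72), and none higher. The Persist list, rich in cell cycle genes, had 12 and 13 of 17 lower (-0.82 and -1.90). Genes of amino acid stress had a median of -0.11 in LNCaP (1 of 26 past 1.5-fold higher, near the share of all genes) and 0.25 in LNCaP-ENZ48 (3 of 26). The lists of endoplasmic reticulum chaperones (0.24 and 0.14), cholesterol synthesis (0.19 and -0.06), MHC class I (0.06 and 0.10) and early response genes (0.05 and 0.21) had at most 2 genes past the limit in each direction.

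Several genes higher in members lie near each other on chromosome 6. Of 323 measured genes of chromosome 6, 75 were at least 1.5-fold higher in LNCaP members and 14 lower, a median 0.32 above that of all genes, and 64 and 11 of 306 in LNCaP-ENZ48 (0.35 above). Chromosome 12 had the next highest median, 0.18 above that of all genes in LNCaP and 0.16 in LNCaP-ENZ48. It had 19 higher and 20 lower of 373 genes in LNCaP and 23 and 15 of 365 in LNCaP-ENZ48. Chromosome 4 was lowest, with 4 higher and 61 lower of 277 in LNCaP (0.29 below) and 5 and 56 of 267 in LNCaP-ENZ48 (0.30 below). Over all genes, 3.85% were higher and 7.73% lower in LNCaP, and 3.48% and 5.99% in LNCaP-ENZ48. In windows of 51 neighbouring measured genes, the highest median in LNCaP was at chromosome 6, 42879616 to 89638749, from RPL7L1 to LYRM2, at 0.83 above all genes, and the same genes stood at 0.80 in LNCaP-ENZ48. In this window 50 of 51 genes were above the median of all genes in each library, and 40 were past 1.5-fold in LNCaP. It held VEGFA, ELOVL5, PGM3, GSTA4, ME1 and ICK as well as the elongation factor gene EEF1A1 (0.63) and the chaperone gene HSP90AB1 (1.02), and GSTA1 lies within it but was not counted. The lowest window was on chromosome 4 (3503612 to 44700928, LRPAP1 to GUF1), at -0.46 and -0.42, and also contains S100P, which was not counted. Windows at the far end of chromosome 16 (0.36 and 0.28) and on chromosome 1 (219173869 to 231422287, 0.29 and 0.28) were the next highest beyond chromosome 6. The windows were added after the data were seen, and DNA copy number was not measured.

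The share of a cell's UMIs from the 51 genes, which include no score gene, separated most members from most other cells. Most of this share in LNCaP was EEF1A1, at 10463 CPM in members and 6774 CPM in other cells. The share was not read without EEF1A1. Its lower quartile, median and upper quartile were 1.58%, 1.72% and 1.83% in LNCaP members and 0.917%, 1.00% and 1.09% in other cells. In LNCaP-ENZ48, which was not used to choose the window, they were 1.56%, 1.68% and 1.80% against 0.932%, 1.02% and 1.12%. The midpoint between the LNCaP medians, 1.36%, was exceeded by 186 of 202 members of LNCaP and 422 of 456 of LNCaP-ENZ48, and by 113 of 1817 and 386 of 4109 other cells. Cells above the midpoint came to 14.8% of LNCaP (13.3% to 16.4%) and 17.7% of LNCaP-ENZ48 (16.6% to 18.8%), so they outnumbered the members. In RES-A and RES-B, 45.8% and 91.2% of cells were above it. Relative to the other cells of LNCaP, the 51 genes stood 0.56 above all genes in RES-A and 0.90 in RES-B, and these comparisons share their LNCaP cells with the one above.

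**Figure D4:**
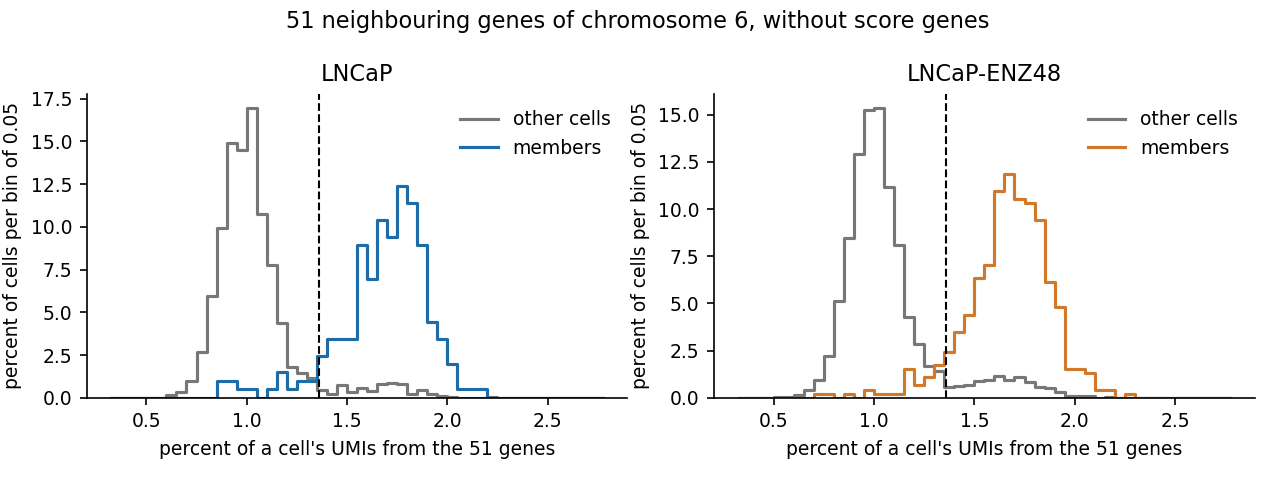
Percent of members and of other cells, in bins of 0.05, by the percent of a cell's UMIs that come from 51 neighbouring genes of chromosome 6 without score genes, and the midpoint of 1.36% as a dashed line. Members peak near 1.7% and other cells near 1.0% in both libraries, and a small second group of other cells lies among the members. In LNCaP most of these UMIs were of EEF1A1.

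The other cells above the midpoint lay between the members above it and the cells below it on several genes. Their median score was 6.78 in LNCaP and 7.15 in LNCaP-ENZ48, below the limit of membership but above the 1.15 and 0.884 of the cells below the midpoint. NQO1 was at 555 CPM in these 113 cells of LNCaP against 225 CPM in the 1704 others below the midpoint, GULP1 at 271 against 112 CPM, KLK3 at 1242 against 548 CPM and PEG3 at 108 against 362 CPM. In LNCaP-ENZ48 the values were 633 against 204 CPM, 319 against 137 CPM, 127 against 63.0 CPM and 27.1 against 131 CPM. In members above the midpoint NQO1 was at 604 and 629 CPM in the 2 libraries and GULP1 at 325 and 388 CPM, but KLK3 was at 1948 and 299 CPM, PEG3 at 32.2 and 16.5 CPM, and NDUFA4L2 at 81.8 and 88.0 CPM against 36.6 and 31.4 CPM in the other cells above. The 16 LNCaP members below the midpoint were near the other cells below on PEG3, at 327 CPM (32.2 CPM in members above and 362 CPM in other cells below). Their NQO1 lay between, at 421 CPM (604 and 225 CPM), and CAMK2N1 was near the members above, at 187 CPM (193 and 45.4 CPM). These 16 cells were nearer to the other cells below on GULP1, at 161 CPM (325 and 112 CPM). They were also nearer to them on KLK3, at 954 CPM (1948 and 548 CPM), and NDUFA4L2, at 25.8 CPM (81.8 and 4.12 CPM). The 34 LNCaP-ENZ48 members below the midpoint were nearer to the members above on GULP1, at 332 CPM (388 CPM in members above and 137 CPM in other cells below), and KLK3, at 339 CPM (299 and 63.0 CPM). The same held for NDUFA4L2, at 104 CPM (88.0 and 4.40 CPM), and CAMK2N1, at 570 CPM (498 and 172 CPM). Their NQO1 lay between, at 401 CPM (629 and 204 CPM), and PEG3 was nearer to the other cells below, at 81.2 CPM (16.5 and 131 CPM). Of the 299 LNCaP cells above the midpoint 95.7% held a UMI of at least 1 of the 6 genes at 5000 UMIs per cell, against 45.7% of the 1720 below, and of the 808 such cells of LNCaP-ENZ48 97.2% against 41.7% of 3757. Above and below the midpoint, MT1G was found in 63.5% and 5.12% of LNCaP cells, SYT4 in 56.5% and 4.88%, S100P in 46.5% and 8.55% and GSTA1 in 22.1% and 1.92%. Of the cells above it, 186 of 299 in LNCaP and 422 of 808 in LNCaP-ENZ48 were members, chosen for UMIs of these 6 genes. The midpoint was also set from LNCaP members, so these shares are in part fixed by the choice of members and are a description. A UMI can also come from free RNA, and these libraries of 1 cell line hold no other cell type from which its share could be read.

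Ordered by score in 20 bins of 5% of the cells, levels changed mainly in the highest bins. The bins hold like numbers of cells, not like steps of score. In LNCaP bin 16 ended at a score of 3.52 and bin 20 at 55.2, and bins 1 to 4 of LNCaP-ENZ48 all had a score of 0. The order of bins therefore does not show how evenly levels changed with score. The share of the 51 genes lay between 0.964% and 1.02% in the lower 16 bins of LNCaP, then at 1.21% and 1.49% in bins 17 and 18, and at 1.62% and 1.72% in bins 19 and 20, which are members. In LNCaP-ENZ48 it was 0.994% to 1.02% up to bin 15, then 1.14%, 1.36%, 1.57%, 1.63% and 1.69%. PEG3 went from 299 CPM in bin 16 to 283, 150, 64.5 and 45.3 CPM in the last 4 bins of LNCaP, and NQO1 from 217 to 371, 521, 585 and 596 CPM. NDUFA4L2 and KLK3 went on rising within the members, to 57.6 and 96.9 CPM and to 1652 and 2091 CPM in the last 2 bins of LNCaP, and to 70.6 and 109 CPM and 215 and 393 CPM in LNCaP-ENZ48.

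**Figure D5:**
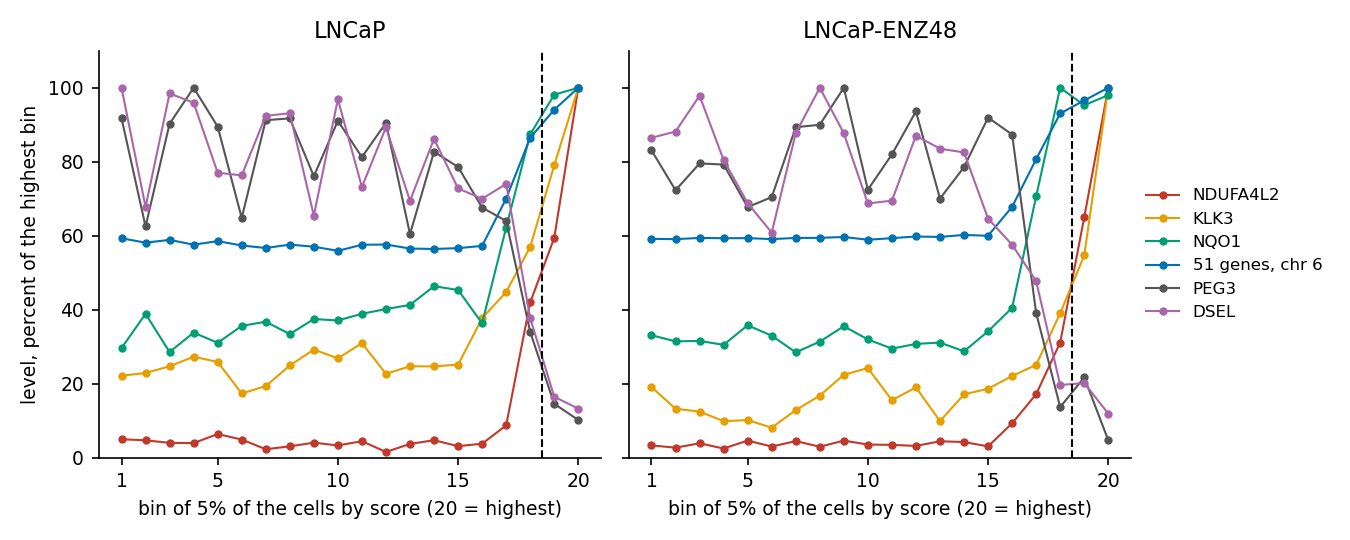
Level of 5 genes and of the 51 neighbouring genes of chromosome 6 in 20 bins of cells ordered by score, each as a percent of its highest bin, with members to the right of the dashed line. The 51 genes and NQO1 climb from bin 16 or 17 on, before the dashed line, while NDUFA4L2 is at 57.6 CPM in bin 19 and 96.9 CPM in bin 20 of LNCaP.

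The members also differed among themselves. Those with most score UMIs from SYT4 (93 in LNCaP, 241 in LNCaP-ENZ48) and from S100P (73 and 109) had like shares of the 51 genes (1.71% and 1.63%, and 1.67% and 1.65%) and like PEG3 levels (47.7 and 65.4 CPM, and 22.1 and 23.2 CPM). NDUFA4L2, however, was at 93.4 CPM in SYT4-led and 14.5 CPM in S100P-led members of LNCaP, and at 129 and 15.7 CPM in LNCaP-ENZ48 (log2 ratios 2.68 and 3.04). The S100P-led members were the low group, since MT1G-led members had 148 and 75.4 CPM in the 2 libraries. Those led by GSTA1, FXYD3 or PKIB (17 and 24 cells) had 193 and 80.8 CPM. BCHE (1.46 and 1.99), the matrix gene FN1 (1.34 and 2.64), KLK2 (1.21 and 2.53) and PGK1 (1.14 and 1.59) were also higher in SYT4-led members. In LNCaP-ENZ48, FN1 and KLK2 were under 10 CPM in S100P-led members, at 9.87 and 4.06 CPM. Their ratios there had wide intervals, 1.93 to 3.44 and 1.43 to 3.88. KLK3 was at 2251 and 1323 CPM in SYT4-led and S100P-led members of LNCaP and 399 and 126 CPM in LNCaP-ENZ48. Of the genes past 1.5-fold higher in S100P-led members, DDIT3 (the transcription factor CHOP) was at 184 against 82.5 CPM in LNCaP and 261 against 96.2 CPM in LNCaP-ENZ48, TRIB3 at 203 against 93.7 CPM and 217 against 79.1 CPM, ATF5 at 105 against 37.6 CPM and 88.2 against 44.2 CPM, and the cell cycle phosphatase gene CDKN3 at 115 against 49.9 CPM and 38.9 against 17.3 CPM. LARP6 (-1.13 and -1.05, SYT4-led over S100P-led) and the transcript LINC01133 (-1.09 and -1.04) were on the same side, as was the protease inhibitor gene SLPI in LNCaP (-1.40), whose interval in LNCaP-ENZ48 included 0 (-0.41). These genes were taken from the extremes of this comparison after their values were seen. MT1G-led members (19 and 82) had the most MT2A, at 2320 and 2260 CPM, against 1254 and 1327 CPM in SYT4-led members.

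Because the score adds SYT4 and S100P, a member needs less of the one when it has more of the other, so their division was also read in the cells above the midpoint of the chromosome 6 share. At 5000 UMIs per cell, 70 such cells of LNCaP held both, 99 SYT4 alone, 69 S100P alone and 61 neither. S100P was found in 41.4% of the SYT4-positive (33.9% to 49.2%) and 53.1% of the SYT4-negative cells (44.1% to 61.9%), intervals that overlap. In LNCaP-ENZ48 the shares were 33.1% (28.7% to 37.7%) and 48.0% (42.8% to 53.2%), which do not overlap.

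Genes that set the resistant lines apart from LNCaP were mixed in the members. PEG3 (-2.65 and -2.47) and the transporter gene SLC22A3 (-1.14 and -1.81), both near absent in the resistant lines, were lower in members. CBLN2, which is instead listed as high in resistant lines, was also lower in members (-2.71 and -4.28). Its level was under the 10 CPM limit in LNCaP, and 1.12 CPM in members against 21.7 CPM in other cells of LNCaP-ENZ48. H2AFJ, a histone gene with 0 UMIs in RES-A and RES-B, was higher in members, at 526 against 318 CPM (0.73) and 530 against 339 CPM (0.64), as was the transcription factor gene ETV1 (0.73 and 0.70). IGFBP5, which was found at 5000 UMIs in 46.8% of cells of RES-A and 16.04% of those of RES-B, was found in 0 of 202 and 0 of 456 members, which allows up to 1.49% and 0.658% of cells with a UMI (3 of the cells counted). GULP1 had at most 0.46 CPM in any set of cells of RES-A and RES-B.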

How the data were processed

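Single-cell 3′ RNA was measured in 4 libraries, 1 per group. The authors deposited UMI counts per gene and barcode, made with Cell Ranger 3.0.2 on GRCh38 according to the submitters' processing notes. Barcodes with at least 1500 genes, 5000 UMIs and under 20% mitochondrial UMIs were kept, which left 2019 cells from 2358 barcodes (LNCaP), 4565 from 4812 (LNCaP-ENZ48), 4629 from 5156 (RES-A) and 4239 from 4907 (RES-B). The study's own narrower limits keep 1782, 4315, 4569 and 4061. Scrublet marked 17, 0, 7 and 0 cells as doublets, too few to have worked, so none were removed, and the highest scores were left out as an alternative. Libraries shared 2 to 10 barcodes.

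UMIs were pooled over members and over other cells and given as CPM (scanpy 1.11.5, scipy 1.17.1, pandas 2.3.3, numpy 2.4.6, Python 3.11.15). Genes with at least 10 CPM over both sets were compared, and past 1.5-fold is called higher or lower without a test. Intervals are exact (Clopper-Pearson) on UMIs or cells, the limit beside a count of 0 is 3 counts of the total, and PCR and cell-to-cell variation are not in them. Cells were thinned to 5000 UMIs for shares and phases.

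Named genes were the 15 highest and 8 lowest per library with at least 50 CPM in either set and the same sign under every alternative draw, and the extremes of each list. Genes that were chosen after their values were seen are S100A10, the genes of the chromosome 6 window, those that differed between SYT4-led and S100P-led members and those given for contrast within a list. Positions are from GENCODE release 44, promoters from RefSeq GRCh38.p14. The members and lists were chosen with earlier results of these data known. Scripts were tested on simulated data.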

Additional observations from a re-analysis of the deposited data

Results flagged for a closer look

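In 4 named genes the members stood on opposite sides of the other cells in LNCaP and LNCaP-ENZ48, with counting intervals that leave out 0 on each side. The difference between the libraries was not tested. PSAT1, an enzyme of serine synthesis, had a log2 ratio of -0.24 in LNCaP (-0.32 to -0.16) and 0.19 in LNCaP-ENZ48 (0.11 to 0.26). NUPR1, a stress-induced transcription regulator, was at -0.12 (-0.18 to -0.07) and 0.092 (0.045 to 0.14). ATF3, a stress-induced transcription factor, was at -0.52 (-0.74 to -0.30) and 0.27 (0.05 to 0.49). PRAC1, a small nuclear protein of prostate and colon, was at 0.32 (0.28 to 0.36) and -0.059 (-0.095 to -0.023).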

How the results depend on the processing

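Members drawn 9 other ways, and other limits on level, moved counts of genes past 1.5-fold more than directions. Recounted under each setting, the genes higher in LNCaP members came to 190 with the top 20% of cells, 85 at 50 CPM or more and 777 at 1 CPM or more, in place of 286. The lower genes came to 309, 87 and 1645, and to 362 in cells called G1, in place of 574. In LNCaP-ENZ48 the recounts were 76 higher genes at 50 CPM and 690 at 1 CPM in place of 248, and 74, 1464 and, in G1 cells, 283 lower ones in place of 427. The share past the LNCaP threshold without thinning was 11.1% (LNCaP-ENZ48), 1.73% (RES-A) and 1.53% (RES-B). With the threshold at the top 5% of LNCaP it was 7.47%, 0.583% and 0.731%, and without MT1G 8.23% and 6.53% in the resistant lines. TMPRSS2 in LNCaP changed sign in G1 cells, to -0.084. The other 112 alternative values of main results moved by less than 1.5 times or less than their counting interval. Of 693 values for single named genes 208 moved beyond their interval and 1 changed sign, and of 598 list medians 94 moved by over 0.1 and 0 changed sign. The causes were not tested. No paired analysis was possible because each group is 1 library, and no library could be left out. Low genes are limited by depth, since a level near 10 CPM rests on few UMIs.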
